A study of Homo sapiens with 15 samples.

Results

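The comparison described here set SUZ12 knockdown against the control vector in LNCaP cells, an androgen-sensitive human prostate cancer line. It used 6 of the 15 libraries of the series: 3 from cells given a lentivirus with a short hairpin RNA against SUZ12 (shsuz12) and 3 from cells given the pLKO control virus. Both groups were harvested 4 to 5 days after infection and are labelled as wild type in genotype, so the hairpin was the labelled difference between them. Each target had 1 group of infected cells, the sequence of the hairpin is not given in the sources used here, and no second hairpin against SUZ12 was analysed here. The 9 other libraries carried hairpins against JARID2 (shJarid2), PALI1 (shPALI1) or G9a (shG9a) and serve below only to show where SUZ12 knockdown differed from them.

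SUZ12 is a core subunit of polycomb repressive complex 2 (PRC2), which methylates histone H3 at lysine 27 through its catalytic subunits EZH2 or EZH1. SUZ12 holds the complex together and is needed for its activity, and accessory subunits such as JARID2, MTF2 and the products of LCOR bind to it in alternative forms of the complex. Genes marked by PRC2 are often developmental regulators, adhesion molecules and genes of other lineages, and they are kept at low expression. EZH2 is known for high levels in advanced prostate cancer.

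Expression was given as RPKM, reads scaled to gene length and to sequencing depth, which allows levels of different genes to be set side by side. A gene was tested when its RPKM reached 1 in at least 3 of the 6 libraries, and 12074 of the 26443 genes with values met this rule. The margin was thin for few genes: 455 had exactly 3 libraries at 1 RPKM or above, and 319 had 2 and were left out. Among the tested genes, 236 reached 1 RPKM in the shsuz12 libraries alone and 112 in the pLKO libraries alone. Such genes could hardly pass without differing, and 224 of the 236 were called higher and 106 of the 112 lower. For such genes levels are given without the p value of this contrast, and counts over lists include them.

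Depth, read from the step that 1 read makes in short genes, was 11.65 to 15.92 megareads in pLKO and 12.03 to 19.35 megareads in shsuz12, which makes 1 RPKM worth 23.3 to 38.7 reads at a length of 2 kb. Libraries of a group correlated across the tested genes at r = 0.987 to 0.991, against 0.940 to 0.946 between groups, on the log2(RPKM + 1) scale. The summed RPKM ran from 264926 to 293663 in pLKO and from 250161 to 262666 in shsuz12. The summed RPKM of 16 luminal prostate markers was high in both groups, at 2597 to 2875 in pLKO and 2012 to 2167 in shsuz12. KRT8 stood at 90.7, 84.8 and 80.9 RPKM in pLKO and 79.4, 84.2 and 87.0 in shsuz12. Such stability did not hold for the whole list, in which 10 markers were called lower and 4 higher. The summed RPKM of 13 basal markers was 11.3 to 11.4 in pLKO and 10.4 to 11.6 in shsuz12, most of it from ITGA6 at 8.06 to 8.76 and 6.73 to 7.70 RPKM (adjusted p = 0.039), an integrin gene. The basal markers KRT5 and TP63, the fibroblast gene DCN and the leukocyte gene PTPRC were listed at 0 in all 6 libraries. The summed RPKM of 10 fibroblast markers was 4.71 to 5.31 in pLKO and 5.02 to 5.51 in shsuz12, that of 10 endothelial markers 1.29 to 1.66 and 1.47 to 1.60, and that of 11 immune markers 2.85 to 3.69 and 2.41 to 3.17.

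SUZ12 itself, at chr17:31937018-32001045 on the plus strand of GRCh38, stood at 19.2, 22.6 and 18.7 RPKM in pLKO and at 2.71, 2.59 and 2.28 RPKM in shsuz12. The groups lay far apart, and the shsuz12 mean was 12.5% of the control (log2 change -2.58 ± 0.092 SE, adjusted p = 3.4e-07). All adjusted p values are from limma's moderated test with Benjamini-Hochberg adjustment over the 12074 genes, with 3 libraries a group. No other hairpin took SUZ12 below 15.1 RPKM: it was 15.8 to 17.6 in shPALI1, 17.9 to 20.1 in shG9a and 15.1 to 20.5 in shJarid2.

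Of the 12074 genes, 6990 passed an adjusted p of 0.05, or 57.9%. They comprised 2717 that were higher in shsuz12 (22.5%) and 4273 that were lower (35.4%), so falls outnumbered rises. At 2-fold or more on the log2(RPKM + 1) scale, 266 genes rose (2.2%) and 408 fell (3.38%), of which 62 and 15 were among the genes kept through 1 group alone. The excess of falls depended on how the columns were scaled. The share of rises among called genes was 38.9% with the values as deposited, 46.4% with median ratio scaling, 49.5% with quantile normalization and 53.3% when every column was rescaled to a common sum. The median log2 change over all tested genes moved with it, from -0.09 as deposited to 0.03 at a common sum. The common sum lay above the deposited sums, so the 1 added before the log also weighed less there. List medians below are to be read against -0.09, and list counts against 22.5% higher and 35.4% lower. Falls were also more frequent at higher levels: 22.1% of genes with a mean of 1 to 3 RPKM were lower, against 49.2% of those at 30 to 100 RPKM and 45% of those above, while the share of rises went from 25.3% to 18.6% and 15.1%.

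Within PRC2, the mRNA of several partners differed as well. EZH2, the main catalytic subunit, stood at 16.5, 16.1 and 14.1 RPKM in pLKO and at 9.99, 10.2 and 10.1 RPKM in shsuz12, or 64.7% of the control (log2 change -0.58 ± 0.077 SE, adjusted p = 0.00018). RBBP7, a histone-binding subunit, fell to 71.1% (adjusted p = 0.00047). EED, the subunit that reads methylated lysine 27, was 8.31, 7.84 and 7.90 RPKM in pLKO and 8.53, 7.56 and 7.91 in shsuz12, with overlapping groups (adjusted p = 0.97), and RBBP4 stood at 88.1% of control (adjusted p = 0.078). The second catalytic subunit, EZH1, was at 122% (adjusted p = 0.021). That call was lost without pLKO replicate 1 (0.057), without shsuz12 replicate 1 (0.054) and without shsuz12 replicate 3 (0.069).

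The accessory subunits split in direction. JARID2, which helps bring PRC2 to chromatin, was 8.79, 8.18 and 8.90 RPKM in pLKO and 12.6, 12.3 and 11.7 RPKM in shsuz12, a rise to 141% (log2 change 0.45 ± 0.071 SE, adjusted p = 0.0005). LCOR, whose locus encodes PALI1, stood at 4.198, 5.58 and 5.67 RPKM in pLKO and 8.86, 7.82 and 7.67 RPKM in shsuz12, or 158% (log2 change 0.58 ± 0.11 SE, adjusted p = 0.0016). Both groups were again separate for these 2 genes, with the knockdown libraries on top. C10orf12, a gene model at the same locus whose reads may overlap with those of LCOR, went the other way, at 77.0% of control (adjusted p = 0.043). This last call was lost without pLKO replicate 2 (0.079) or 3 (0.12), without shsuz12 replicate 2 (0.16) or 3 (0.080), and under each other scaling (0.069 to 0.22).

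LCORL, which encodes the related PALI2, dropped from 1.74, 2.13 and 1.77 RPKM to 1.01, 0.938 and 0.774 RPKM, or 48.3% of control (adjusted p = 0.001). The largest fall among partners was that of C17orf96, the gene of the PRC2-associated protein EPOP, at 6.90, 6.42 and 5.01 RPKM in pLKO and 2.27, 2.03 and 2.20 RPKM in shsuz12. Its level was 35.4% of control (log2 change -1.16 ± 0.11 SE, adjusted p = 2.5e-05). MTF2, a polycomb-like subunit, was at 80.7% (adjusted p = 0.0084; 0.14 at a common sum), and AEBP2 and PHF1 did not pass. PHF19 was under 1 RPKM throughout (0.755 to 0.992) and CXorf67 was listed at 0, so neither was tested.

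**Figure D1:**
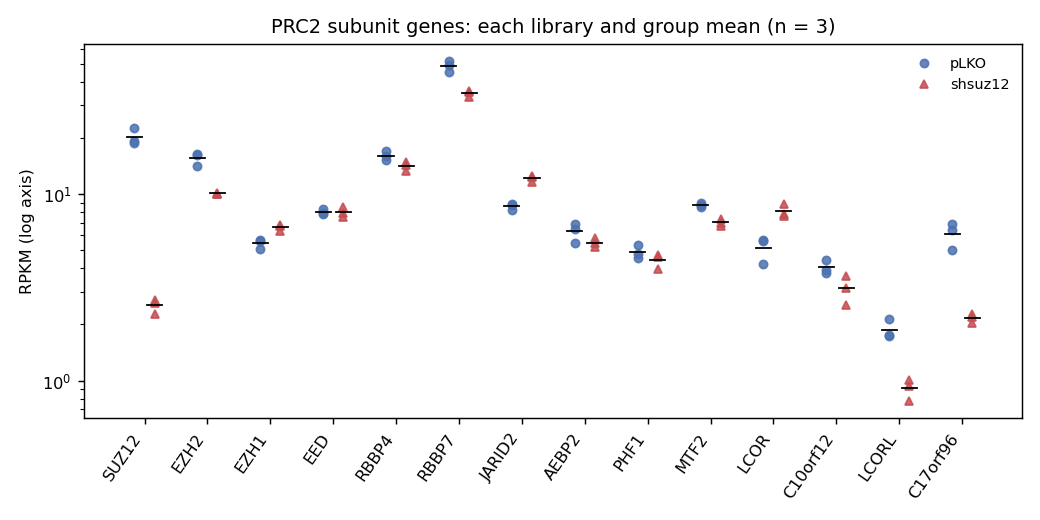
RPKM (log axis) of 14 PRC2 subunit genes in each pLKO library (blue circles) and shsuz12 library (red triangles), with lines at the group means (n = 3). SUZ12 shows the widest gap, C17orf96, LCORL, EZH2 and RBBP7 sit lower in shsuz12, JARID2 and LCOR sit higher, and EED overlaps.

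Single genes among other chromatin regulators changed as well. Of 24 tested subunits of PRC1, the complex that ubiquitinates histone H2A, 3 were higher (12.5%) and 11 lower (45.8%). Over all tested genes the shares were 22.5% and 35.4%. The falls were led by CBX7 at 63.9% and PCGF1 at 70.02% of control (adjusted p = 0.00079 and 0.0013). The catalytic PRC1 genes RING1 and RNF2 did not pass. Among 15 tested genes that oppose H3K27 methylation, 5 rose (33.3%) and 3 fell (20%). KDM6B, an H3K27 demethylase, stood at 19.1, 16.8 and 19.8 RPKM in pLKO and 33.1, 34.1 and 34.6 RPKM in shsuz12, 183% of control (adjusted p = 2.1e-05). Of 15 H3K9 methylation genes 3 rose (20%) and 7 fell (46.7%), among the latter SUV39H1 at 44.2% (adjusted p = 0.00015). In the DNA methylation list UHRF1 and DNMT1, which keep methylation through replication, fell to 33.2% and 54.2% of control (adjusted p = 1.1e-05 and 2.4e-05). The other 4 of its 6 tested members were higher by 0.21 to 0.34 on the log2 scale, and when 1 library was left out between 1 and 4 of them passed.

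The largest rises ranged from genes under 1 RPKM in the control to genes that it clearly expressed. By a rule that took the 14 largest rises in log2 change with separate groups and a mean of at least 2 RPKM, they were SI, CBLN2, TENM1, CHRNA2, PLA2G2A, GRIN3A, LRRN1, TSPAN8, CRISP3, F5, OR51E1, PRSS22, TTR and CEL. Several encode proteins known from gut, liver or pancreas (SI, TTR, F5, CEL) and several from neurons (CBLN2, TENM1, CHRNA2, GRIN3A, LRRN1). This grouping was made after the values were seen. In pLKO 7 of the 14 were at 1 RPKM or more in every library, and 6 were under 1 RPKM in every library and so were kept through shsuz12 alone.

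SI, which encodes the intestinal enzyme sucrase-isomaltase, stood at 0.848, 0.961 and 0.685 RPKM in pLKO and at 43.0, 43.1 and 41.2 RPKM in shsuz12. The knockdown libraries were close to one another and 51.0-fold above the control mean (log2 change 4.57 ± 0.080 SE). In the other knockdowns SI remained at 0.898 to 3.23 RPKM per library. CBLN2, a secreted organizer of synapses, went from 0.755, 0.412 and 0.593 RPKM to 11.9, 12.4 and 11.7 RPKM (20.4-fold; log2 change 3.04 ± 0.097 SE). TENM1, a transmembrane teneurin of neurons, was at 0.540, 0.536 and 0.666 RPKM in pLKO and 10.7, 9.43 and 9.81 RPKM in shsuz12 (17.2-fold). Neither gene had a pLKO library above 1 RPKM.

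Among the receptor genes, GRIN3A, an NMDA receptor subunit, stood at 0.229 to 0.276 RPKM in pLKO and 5.22 to 6.29 RPKM in shsuz12 (22.3-fold). CHRNA2, a nicotinic receptor subunit also known as an androgen-responsive gene, was at 1.37 to 1.85 and 15.4 to 17.2 RPKM (10.3-fold, adjusted p = 2.4e-07). OR51E1, an olfactory receptor expressed in prostate, was at 2.54 to 4.11 and 17.6 to 20.7 RPKM (5.77-fold, adjusted p = 2.2e-06). Membrane proteins were represented by LRRN1, a leucine-rich repeat protein, at 3.83 to 4.06 against 23.9 to 25.8 RPKM (6.31-fold, adjusted p = 2.4e-07), and by the tetraspanin TSPAN8, at 0.0716 to 0.456 against 5.03 to 5.89 RPKM (19.2-fold).

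The rest of the 14 encode secreted proteins. PLA2G2A, a secreted phospholipase A2, had the highest level of all, at 18.03, 17.4 and 12.3 RPKM in pLKO and 86.3, 93.7 and 93.1 RPKM in shsuz12 (5.72-fold, adjusted p = 1.4e-06). F5, coagulation factor V, was 6.36-fold higher and TTR, the thyroid hormone carrier transthyretin, 6.44-fold (adjusted p = 3.4e-07 and 2e-06). CRISP3 was 8.93-fold higher and CEL, a bile salt-dependent lipase, 5.99-fold (adjusted p = 1.6e-06 and 8.8e-07). The serine protease gene PRSS22 was 9.80-fold higher. None of the 14 had a shsuz12 library within the range of the pLKO libraries, which the rule required; groups were separate in 64.8% of all tested genes.

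**Figure D2:**
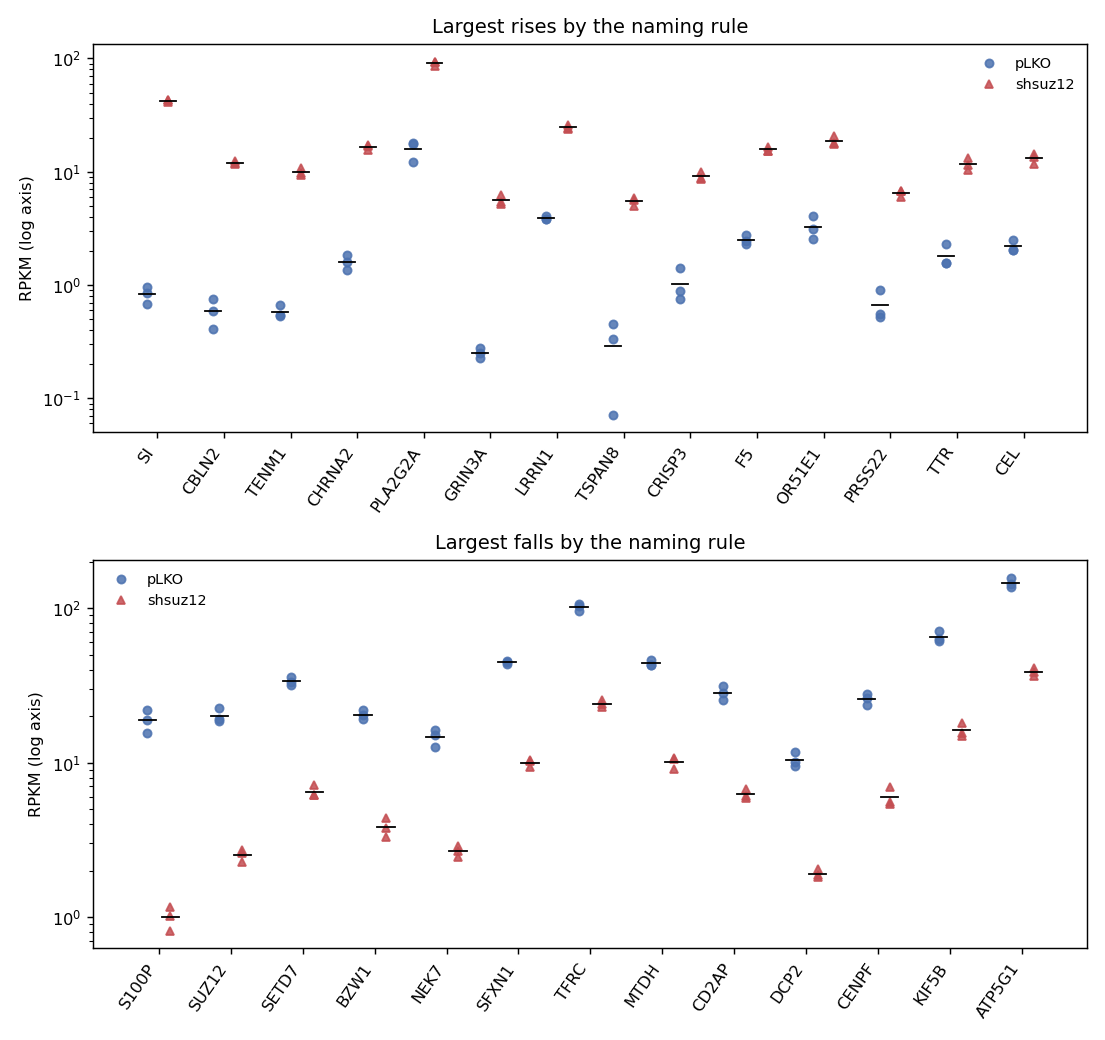
RPKM (log axis) in each pLKO library (blue circles) and shsuz12 library (red triangles) for the 14 largest rises (top) and 13 of the largest falls (bottom), with lines at the group means (n = 3). SI climbs from under 1 RPKM to over 41 RPKM, and S100P drops from over 15 RPKM to about 1 RPKM.

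A stricter view asked which genes went from under 0.1 RPKM in every pLKO library to at least 1 RPKM in every shsuz12 library. There were 7, against 1 in the opposite direction, and since the rule fixes their difference they are described without a test. CDH7, a cadherin, was at 0.0821, 0.0637 and 0 RPKM in pLKO and 2.69, 2.80 and 2.42 RPKM in shsuz12. HOPX, a homeodomain-only protein gene, went from 0.0453 to 0.0993 RPKM up to 1.37 to 1.66 RPKM. XG, the Xg blood group gene, was at 0.0276 to 0.0877 and 1.13 to 1.51 RPKM. LRRC31 and the unnamed locus LOC101927501 completed the longer genes, at 1.92 to 2.52 and 1.57 to 1.69 RPKM in shsuz12. The remaining 2, the microRNA genes MIR6894 and MIR6778, and MIR6846 in the other direction, are so short that their values stood for 1 to 3 reads a library where they were not 0.

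Promoter sequence is shown for 3 of the rises because base composition set the large rises apart from the other tested genes. Each window runs from 250 bases before to 50 bases after the gene start in RefSeq (GRCh38.p14), 5′ to 3′, with CG dinucleotides in capitals.
SI, chr3:165078447-165078746, minus strand: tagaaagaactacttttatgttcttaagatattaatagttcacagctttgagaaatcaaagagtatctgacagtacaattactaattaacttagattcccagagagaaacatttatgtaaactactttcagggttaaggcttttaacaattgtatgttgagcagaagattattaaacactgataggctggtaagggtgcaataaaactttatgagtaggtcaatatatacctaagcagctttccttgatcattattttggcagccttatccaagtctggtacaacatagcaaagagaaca
TSPAN8, chr12:71157950-71158249, minus strand: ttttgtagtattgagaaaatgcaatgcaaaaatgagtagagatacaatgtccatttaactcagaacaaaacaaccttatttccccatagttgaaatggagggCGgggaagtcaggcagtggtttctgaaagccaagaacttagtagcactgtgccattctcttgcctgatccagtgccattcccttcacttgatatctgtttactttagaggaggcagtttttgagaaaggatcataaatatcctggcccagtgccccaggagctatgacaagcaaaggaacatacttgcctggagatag
LRRN1, chr3:3799181-3799480, plus strand: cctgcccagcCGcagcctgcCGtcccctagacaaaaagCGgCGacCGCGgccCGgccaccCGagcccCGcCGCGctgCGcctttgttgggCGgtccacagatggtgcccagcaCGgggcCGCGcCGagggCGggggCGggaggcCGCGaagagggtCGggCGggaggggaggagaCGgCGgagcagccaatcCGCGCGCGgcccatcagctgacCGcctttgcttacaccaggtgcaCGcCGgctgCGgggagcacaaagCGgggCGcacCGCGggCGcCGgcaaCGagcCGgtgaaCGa

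The windows of SI and TSPAN8 held 0 and 1 CG dinucleotides, and that of LRRN1 held 42. A window was counted as CpG-rich when its GC content was over 50% and its CG count over 0.6 of that expected from its C and G content. A window was found for 9452 of the 12074 tested genes. Of the 183 genes with at least a 2-fold rise and a window, 56.3% were CpG-rich, with a median of 18 CG. The share was 77.6% among 1935 smaller rises, 83.3% among 3858 genes not called, 85.8% among 3158 smaller falls and 87.4% among 318 falls of at least 2-fold, with a median of 27 CG in each of these classes. Across all 27305 RefSeq windows it was 46.8%, so the large rises lay between the tested genes and the genome as a whole. Within genes averaging 3 to 10 RPKM over the 6 libraries the large rises were CpG-rich in 49.2% of 63 cases, against 82.9% of genes not called. At 10 to 30 RPKM it was 73.9% of 46, against 88.7%, and from 30 RPKM 60% of 25, against 88.6%. The median CG count of large rises was 17 against 27 at 3 to 10 RPKM, 28 against 28 at 10 to 30 RPKM and 30 against 27 beyond. Of all 266 large rises, 62 were kept through shsuz12 alone, and the class was not split by this. The classes come from the same contrast, so these shares are a description without a test.

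The largest falls by the same rule included S100P, SUZ12, SETD7, BZW1, NEK7, SFXN1, TFRC, MTDH, CD2AP, DCP2, CENPF, KIF5B and ATP5G1. S100P, a calcium-binding protein gene, showed the deepest fall of these, at 21.7, 18.8 and 15.6 RPKM in pLKO and 1.01, 1.16 and 0.814 RPKM in shsuz12. Its level was 5.31% of control (log2 change -3.30 ± 0.12 SE, adjusted p = 3.4e-07).

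SETD7, a lysine methyltransferase gene, stood at 31.6, 35.6 and 33.4 RPKM in pLKO and 7.16, 6.15 and 6.17 RPKM in shsuz12, or 19.4% of control (log2 change -2.21 ± 0.081 SE, adjusted p = 3.5e-07). BZW1, a regulator of translation initiation, was at 20.5, 21.9 and 19.04 RPKM against 4.39, 3.77 and 3.31 RPKM (18.7%, adjusted p = 8.6e-07). These falls were nearly as deep as that of the targeted gene. DCP2, which removes the cap from mRNAs, stood at 18.3% of control, the kinase gene NEK7 at 18.2% and the adaptor gene CD2AP at 22.0% (adjusted p = 1e-06, 1.1e-06 and 8.6e-07). The mitochondrial serine carrier gene SFXN1 was at 22.4% and TFRC, the transferrin receptor, at 23.7% (adjusted p = 2.4e-07 and 3.4e-07).

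KIF5B, a kinesin heavy chain gene, was at 24.8%, and ATP5G1, a subunit gene of the mitochondrial ATP synthase, at 26.4% (adjusted p = 1e-06 and 6.6e-07). MTDH and CENPF, the latter a kinetochore gene, completed the set at 22.9% and 23.1% (adjusted p = 4.9e-07 and 1.5e-06). Each of the 14 had all 3 shsuz12 libraries below all 3 pLKO libraries, as the rule required.

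A 7-base word in the 3′ UTR went with the falls. All 16384 words of 7 bases were counted in the 3′ UTRs of 10586 tested genes (GENCODE v29), and the word whose share differed most between the falls of at least 2-fold and the other tested genes was AAATGAA. It was present in 49.2% of 370 such falls, in 30.3% of the other tested genes and in 23.1% of the 221 rises of at least 2-fold. Next came CAAATGA, at 30% of the falls and 16.8% of the others, which overlaps the first. Joined, they give the 8-base word CAAATGAA, found in 15.7% of these falls and 5.43% of these rises. Words ranked below them were also rich in A and T. Among these were AATATTT, at 46.5% of the falls and 36.4% of the others, and TTTTAAT, at 48.1% and 39.1%. The base composition of the UTRs was not taken into account. Single sites from 3 of the named falls are printed because each held the 8-base word, in capitals, within 30 bases of the 3′ UTR.
BZW1: acaaccattttCAAATGAAccttagaaaag
CD2AP: ataaatatgagCAAATGAAgtgtaatatct
DCP2: ttaagaagtagCAAATGAAtggtttaggat

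Calls followed the number of copies of AAATGAA. Genes with 0, 1, 2 and 3 or more copies were lower in 34.5%, 41.4%, 45.0% and 53.5% of cases and higher in 24.4%, 20.7%, 16.5% and 12.2%. The median log2 change went from -0.07 with 0 copies to -0.14, -0.17 and -0.26. Longer UTRs hold more copies, and length was related to the change by itself: without the word the median was -0.18 for UTRs of 20 to 500 bases and 0.06 for those over 3000 bases. Within each length class the genes with the word were lower, at -0.30 against -0.18 under 500 bases, -0.23 against -0.07 up to 1500, -0.18 against 0.01 up to 3000 and -0.12 against 0.06 beyond. The median difference from shJarid2, shPALI1 and shG9a for genes with 3 or more copies was -0.16, -0.25 and -0.18, against -0.05, -0.01 and -0.02 with 0 copies. The word was picked on these very calls, so its shares are a description without a test.

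The 8-base word also occurs at 2 places in SUZ12's own mRNA. In its GENCODE v29 transcript, which has 4491 bases of which the last 2042 are the 3′ UTR, it starts at bases 1485 and 2120, both before the UTR. The 3′ UTR of SUZ12 held 0 copies of this word and 0 of AAATGAA. For the other genes the word was counted in 3′ UTRs only, so the 2 sites have no background rate. Whether they are more than such a transcript would hold anyway was not tested. The surrounding 30 bases are shown for each site.
SUZ12, base 1485: aaaggatactcCAAATGAAaaccgacaaaa
SUZ12, base 2120: ttgctgacaatCAAATGAAtcatgcctgta

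S100P, with a 3′ UTR of 127 bases, held no copy of the shorter word, and NEK7, KIF5B and TFRC held 6, 4 and 3. Since no hairpin sequence was used, whether any of these sites pairs with the hairpin was not tested.

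**Figure D3:**
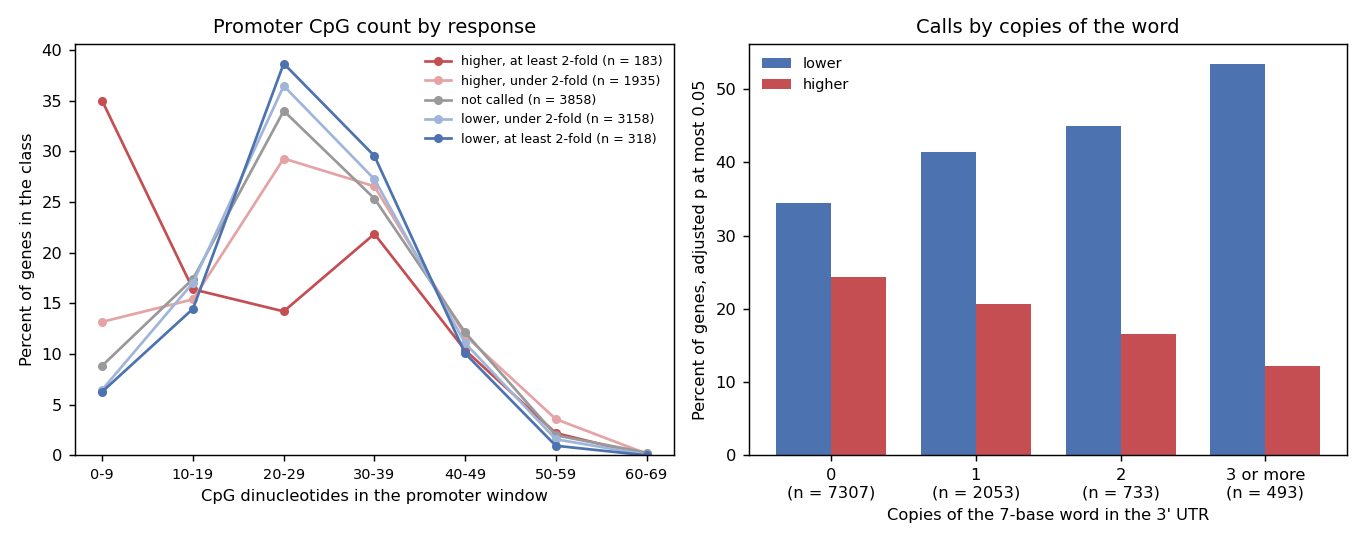
Left, percent of genes (y axis) by number of CG dinucleotides in the 300-base promoter window (x axis) for 5 classes of response, in which rises of at least 2-fold (n = 183) peak at 0 to 9 CG and the other classes at 20 to 29. Right, percent of genes called lower (blue) or higher (red) by copies of AAATGAA in the 3′ UTR, where falls go from 34.5% to 53.5% and rises from 24.4% to 12.2%.

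Genes of the cell cycle formed the most uniform group. All 25 tested mitotic genes fell, 21 of them by at least 2-fold, with a median log2 change of -1.23. CDC20, an activator of the anaphase-promoting complex, stood at 67.9, 59.8 and 58.5 RPKM in pLKO and 14.8, 17.7 and 16.7 RPKM in shsuz12, or 26.5% of control (log2 change -1.86 ± 0.088 SE, adjusted p = 1e-06). PLK1, a mitotic kinase gene, was at 33.2% (adjusted p = 1.9e-06), and the proliferation marker MKI67 at 53.5% (adjusted p = 7.3e-05). In every one of these genes the shsuz12 libraries lay below the pLKO libraries.

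DNA replication genes followed, with 29 of 30 lower, none higher and a median of -0.93. TYMS, thymidylate synthase, was at 27.3, 24.1 and 23.3 RPKM in pLKO and 7.60, 7.47 and 7.29 RPKM in shsuz12 (29.9%, adjusted p = 1.1e-06), and CDC45, a part of the replicative helicase, stood at 27.7% (adjusted p = 1.1e-06). The counts of falls in both lists stayed at 25 and at 27 to 29 under the scalings tried. In these bulk libraries fewer dividing cells and less RNA per cell cannot be told apart. The tested genes of the CDK inhibitor list did not move the opposite way. Of 7 tested, none was called higher, against 22.5% of all tested genes, and 6 were lower (85.7%, against 35.4%). CDKN3 fell to 34.8% and CDKN2A, the classical PRC2 target, to 63.3% (adjusted p = 9.5e-06 and 0.0015). CDKN1C, kept through pLKO alone, stood at 35.5%. CDKN1A, the gene of p21, stood at 201, 179 and 178 RPKM in pLKO and 175, 195 and 193 RPKM in shsuz12, with overlapping groups (adjusted p = 0.92). CDKN2B was untested and had all shsuz12 libraries above the control, at 0.305 to 0.431 RPKM in pLKO and 0.771 to 0.984 in shsuz12.

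Most classical polycomb targets stayed too low to test. Only 9 of 39 HOX genes in the table passed the filter, of which 2 rose (22.2%) and 3 fell (33.3%). These shares were near the 22.5% and 35.4% of all tested genes. The split became 2 and 2 with median ratio scaling or a common sum. HOXC6 rose to 174% of control and HOXB13, a homeobox gene of prostate identity, fell from 140, 127 and 111 RPKM to 68.0, 73.3 and 71.2 RPKM (56.2%), with adjusted p values of 4.2e-05 and 6e-05. Of 118 other developmental transcription factors 33 were tested, with 8 higher (24.2%) and 9 lower (27.3%), and 10 higher and 6 lower at a common sum. IRX2 had the largest rise among them, from 1.67, 1.73 and 1.01 RPKM to 4.56, 5.32 and 5.57 RPKM (3.51-fold, adjusted p = 3.1e-05), and TWIST1 fell to 37.2% (adjusted p = 0.00061). Below the filter, 2 of 30 HOX genes and 7 of 85 developmental factors had all shsuz12 libraries above all pLKO libraries, against 7.75% of all 14369 untested genes, so neither list stood out. The opposite order held for 3 and 4 of them, against 4.5% of all untested genes.

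A list of genes reported as silenced by EZH2 was likewise mixed, with 4 of 11 tested members higher (36.4%) and 5 lower (45.5%). Over all tested genes the shares were 22.5% and 35.4%. TIMP2, a metalloproteinase inhibitor gene, stood at 13.3, 13.1 and 11.6 RPKM in pLKO and 34.0, 36.0 and 34.7 RPKM in shsuz12 (2.76-fold, adjusted p = 1.6e-06). CDH1, the gene of E-cadherin, was at 113, 119.7 and 119.7 RPKM against 258, 264 and 248 RPKM (2.18-fold, adjusted p = 2.7e-06). RARB, a retinoic acid receptor gene kept through shsuz12 alone, was 3.81-fold higher. The falls included CDKN1C and CDKN2A above. CDH1 is also an epithelial junction gene, a list in which 10 of 27 rose (37%) and 8 fell (29.6%). In the same list CTNNA1, the gene of alpha-catenin, dropped to 32.5% of control (adjusted p = 1.1e-06), from 59.5 to 65.5 RPKM down to 19.3 to 22.0 RPKM.

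Axon guidance genes leaned upwards, with 14 of 22 tested members higher (63.6%, against 22.5% of all tested genes) and 4 lower (18.2%, against 35.4%) and a median of 0.63. EPHA7 and EPHA3 were kept through shsuz12 alone. EPHA7, an ephrin receptor gene, stood at 0.886, 0.947 and 0.630 RPKM in pLKO and 6.35, 6.81 and 6.38 RPKM in shsuz12 (7.93-fold; log2 change 2.05 ± 0.096 SE). EPHA3 was 4.16-fold higher. The semaphorin gene SEMA6A was 2.28-fold higher and the plexin gene PLXNB1 2.02-fold (adjusted p = 5e-06 and 6.6e-06). NRP1, a co-receptor for semaphorins, was among the falls, at 71.4% (adjusted p = 0.00055). The 14 to 15 rises and 2 to 4 falls under the scalings left the lean in place.

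Of 92 neuronal synapse, vesicle, channel and cytoskeleton genes 24 were tested, with a median of 0.23. Of these 13 rose (54.2%, against 22.5% of all tested genes), 3 fell (12.5%, against 35.4%) and 8 did not pass. Of the 13, 5 were kept through shsuz12 alone, SYP among them. SYP, which encodes the vesicle protein synaptophysin and marks neuroendocrine cells, was at 0.632, 0.748 and 0.5995 RPKM in pLKO and 4.71, 4.86 and 5.05 RPKM in shsuz12 (7.39-fold; log2 change 1.82 ± 0.088 SE). MAP2, a dendritic microtubule protein gene, rose 3.75-fold, TUBB3, neuronal tubulin, 2.66-fold and SYT4, a synaptotagmin, 2.16-fold (adjusted p = 4e-06, 7.6e-06 and 1.1e-05). SYT4 was already at 188 to 231 RPKM in the control. Of the 68 untested neuronal genes, 11.8% had all shsuz12 libraries above the control and 14.7% had them below, against 7.75% and 4.5% of all untested genes.

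The neuroendocrine list had 2 tested members of 17. Beside SYP this was ENO2, an enolase gene, at 9.45, 8.91 and 7.29 RPKM in pLKO and 8.57, 9.34 and 8.19 RPKM in shsuz12, with overlapping groups (adjusted p = 0.83). None of the 15 untested members exceeded 0.581 RPKM, and 4 of them (26.7%) had all shsuz12 libraries above the control, namely CHGA, CHGB, SCG2 and SCG3, while 13.3% had them below, against 7.75% and 4.5% of all untested genes. The highest of the 4 was SCG3, at 0 to 0.104 RPKM in pLKO and 0.251 to 0.581 RPKM in shsuz12.

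The clustered protocadherins, neighbouring cell adhesion genes on chromosome 5 that are expressed in neurons, had 6 tested members in the beta and gamma clusters. PCDHB2 (chr5:141094578-141098703) was at 2.16, 2.49 and 2.29 RPKM in pLKO and 6.12, 6.85 and 6.17 RPKM in shsuz12 (2.76-fold), PCDHB5 rose 2.45-fold and PCDHGC3 to 199% of control (adjusted p = 6.5e-06, 6.8e-06 and 0.00012). PCDHB13, kept through shsuz12 alone, and PCDHGB5 were called as well (adjusted p = 0.027 for PCDHGB5). Those 2 calls were lost in 5 and 4 of the 6 fits that left out 1 library: all except the one without pLKO replicate 2 for PCDHB13, and all except those without pLKO replicate 1 or 2 for PCDHGB5. Below the filter, 10 of 19 gamma and 4 of 13 beta members had all shsuz12 libraries above the control, against 7.75% of all untested genes, and 2 of 15 alpha members did. Gamma members share exons and beta members are similar in sequence, so how reads were divided among them is uncertain.

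Cancer testis antigens and imprinted genes, 2 further groups under epigenetic control, changed in both directions. Of 13 tested cancer testis genes 7 rose (53.8%, against 22.5% of all tested genes) and 5 fell (38.5%, against 35.4%). Of the 7, 2 were kept through shsuz12 alone. One of these was MAGEC2, at 0.649, 0.504 and 0.688 RPKM in pLKO and 3.42, 5.01 and 5.42 RPKM in shsuz12 (7.52-fold). The MAGE genes are close copies, which makes their single values uncertain. Among 13 imprinted genes 6 rose (46.2%) and 4 fell (30.8%), to be read against the same 22.5% and 35.4%. PHLDA2 and GNAS, of which the first limits placental growth and the second encodes a G protein subunit, fell to 32.7% and 38.2% (adjusted p = 1.3e-05 and 1.5e-06).

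Androgen-responsive genes, the lineage program of LNCaP cells, changed in both directions. Of 33 tested genes activated by androgen 19 were lower (57.6%) and 12 higher (36.4%), with a median of -0.38. Both shares were above those of all tested genes, 35.4% and 22.5%, and their ratio was close to that over all genes. KLK3, the gene of prostate-specific antigen, stood at 1160.4, 1129 and 1036 RPKM in pLKO and 555, 634 and 593 RPKM in shsuz12, or 53.6% of control (log2 change -0.90 ± 0.085 SE, adjusted p = 2.4e-05). TMPRSS2, a membrane protease, was at 44.3% and the elongation factor gene ELL2 at 24.9% (adjusted p = 3.2e-06 and 8.5e-07). ACPP, prostatic acid phosphatase, went the other way, at 1.998-fold (adjusted p = 1.6e-05), as did CHRNA2 and PLA2G2A above.

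Of 7 tested genes known to be repressed by androgen 5 rose (71.4%) and 1 fell (14.3%), against 22.5% and 35.4% of all tested genes. Their median was 0.79, and SI was kept through shsuz12 alone. The rises included BCHE (2.36-fold, adjusted p = 1.1e-05) and DDC (1.74-fold, adjusted p = 8.8e-05). UGT2B15, a close copy of UGT2B17, was at 189% (adjusted p = 5e-05). Among 16 luminal markers, some of them in the list of activated genes, 4 rose (25%) and 10 fell (62.5%), and under the other scalings 8 fell.

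Stress and signalling lists differed in direction. In the ATF4 program of amino acid supply 22 of 28 tested genes fell (78.6%, against 35.4% of all tested genes). In it 2 rose (7.14%, against 22.5%), and the median was -0.67. PSAT1, an enzyme of serine synthesis, was at 87.0, 93.8 and 75.1 RPKM in pLKO and 32.8, 31.7 and 30.9 RPKM in shsuz12 (37.2%, adjusted p = 3.2e-06), ASNS, asparagine synthetase, at 48.6% and ATF4 itself at 54.0% (adjusted p = 9.9e-06 and 1.9e-05). Interferon-stimulated genes also leaned downwards, with 12 of 16 down (75%), 1 up (6.25%) and a median of -0.39, though 8 were down at a common sum. ISG15 stood at 57.7, 49.1 and 47.9 RPKM in pLKO and 26.3, 28.0 and 31.6 RPKM in shsuz12 (55.5%, adjusted p = 7.5e-05), and BST2 went from 1.35 to 1.66 RPKM down to 0.0726 to 0.253 RPKM. BST2 was 1 of 4 members kept through pLKO alone.

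Targets of p53 leaned upwards, with 14 of 29 higher (48.3%, against 22.5% of all tested genes), 4 lower (13.8%, against 35.4%) and a median of 0.25. TP53I3 was at 3.66, 2.47 and 2.83 RPKM in pLKO and 13.6, 17.5 and 17.97 RPKM in shsuz12 (5.47-fold, adjusted p = 3.2e-06), the death receptor gene FAS was 3.01-fold higher and MDM2 1.53-fold (adjusted p = 3.1e-06 and 0.00033), whereas CDKN1A, above, and BAX did not pass. Of 16 YAP and TEAD targets 9 rose (56.2%) and 4 fell (25%), or 12 and 1 at a common sum. CYR61 was 2.78-fold higher (adjusted p = 6.9e-06). In the cholesterol list 13 of 27 rose (48.1%) and 5 fell (18.5%). The synthesis gene SC5D was 2.48-fold higher, while INSIG1, which restrains synthesis, fell to 43.3% (adjusted p = 7.1e-06 and 8.4e-06). The hypoxia and glycolysis list had 22.6% of 31 members higher and 48.4% lower, against 22.5% and 35.4% of all tested genes.

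Against the same 22.5% and 35.4%, the WNT list had 35.3% of 17 members higher and 29.4% lower, the TGF-beta and BMP list 37% and 18.5% of 27, and the Notch list 20% of 15 in each direction. They held single large changes. ID3, a target of BMP signalling, was 2.83-fold higher, whereas BAMBI, a decoy receptor, fell to 39.7% and HES1, a Notch target, to 31.7% (adjusted p = 1.1e-05, 2.5e-06 and 1.3e-05). Of 75 ribosomal protein genes 3 were higher and 9 lower as deposited, and 26 were higher and 7 lower at a common sum, so their direction was set by the scaling.

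**Figure D4:**
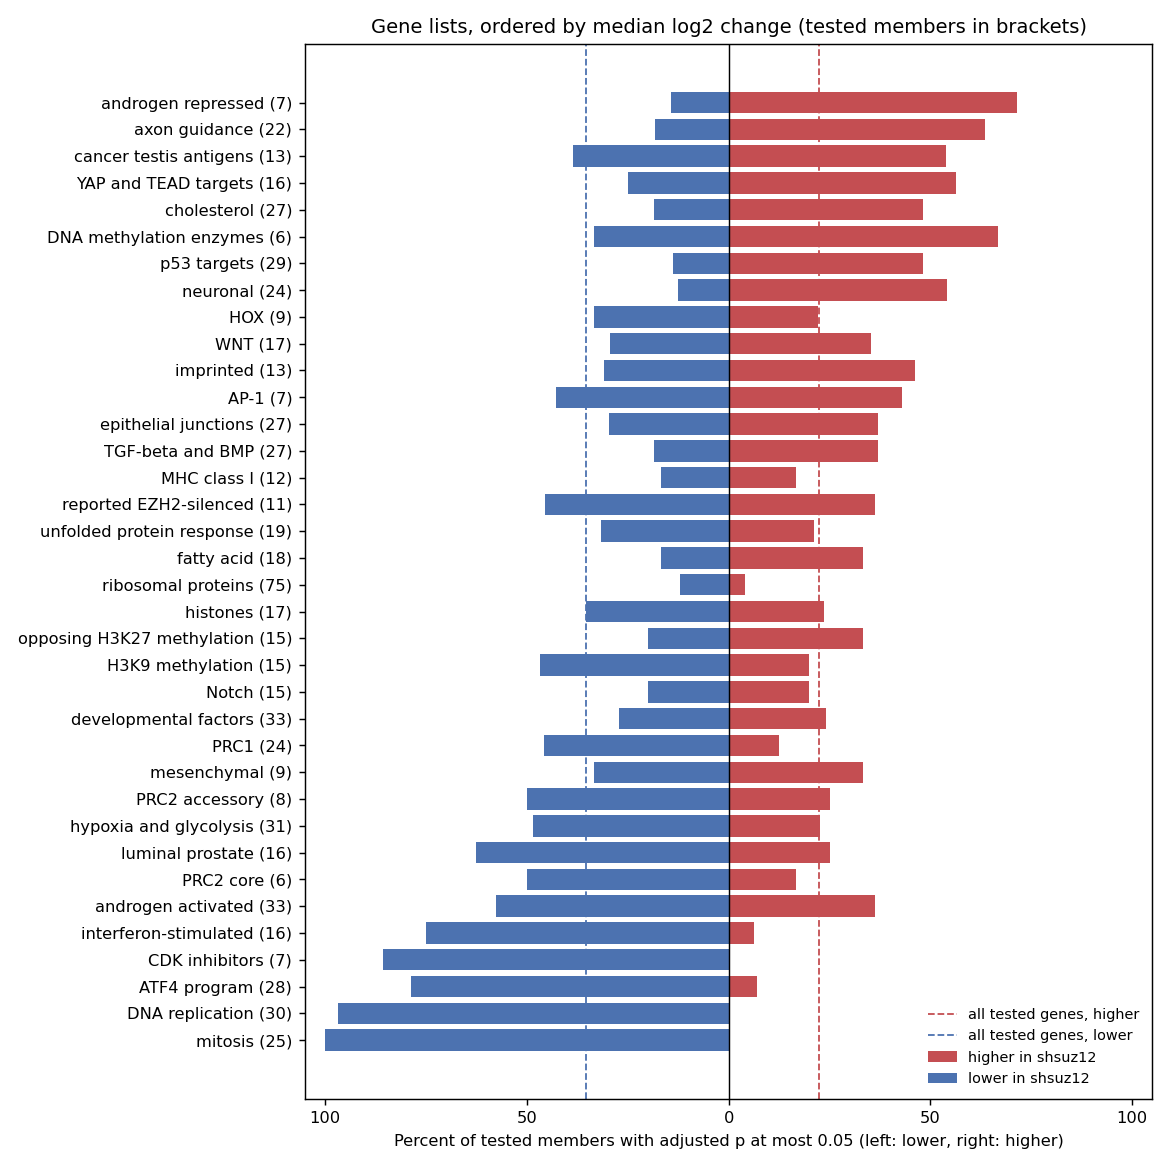
Percent of the tested members of 36 gene lists that were lower (blue, leftwards) or higher (red, rightwards) in shsuz12 with adjusted p of at most 0.05, ordered by median log2 change, with dashed lines at the percentages over all tested genes (35.4% lower and 22.5% higher). The mitosis and DNA replication lists lie at the bottom with 25 of 25 and 29 of 30 members lower, and the lists of genes repressed by androgen and of axon guidance genes lie at the top.

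Direct comparisons with the other hairpins showed which genes differed between SUZ12 knockdown and each of them. The log2 differences do not use the control libraries. The spread came from all 15 libraries, control included, and the genes were those filtered on pLKO and shsuz12. Against shJarid2, 3137 genes were higher in shsuz12 (26%) and 4186 lower (34.7%). Against shPALI1 the counts were 3140 (26%) and 3785 (31.3%), and against shG9a 2518 (20.9%) and 3163 (26.2%). One shJarid2 library, replicate 3, stood apart from the other 2 in some genes, such as SETD7 (33.9 RPKM against 57.7 and 56.8), and without it each of these counts stayed within 1.5 times its value.

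The named rises and falls were picked for extreme shsuz12 values, which these comparisons reuse. Their counts and p values here are therefore a description and no independent test. All 14 named rises were higher in shsuz12 than in shPALI1 and in shG9a. Against shJarid2, 10 were higher, CRISP3, OR51E1 and PRSS22 did not differ past the threshold (adjusted p = 0.24, 0.14 and 0.85), and PLA2G2A was lower. PLA2G2A stood at 292, 291 and 459 RPKM in shJarid2, above its 86.3 to 93.7 RPKM in shsuz12 (log2 difference -1.89, adjusted p = 4e-07). SI was separate from each other hairpin by 3.55 to 4.42 on the log2 scale. EPHA7 and EPHA3 did not differ past the threshold from shPALI1 (adjusted p = 0.61 and 0.91), where their means were 6.08 and 3.96 RPKM, against 6.51 and 3.88 RPKM in shsuz12.

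All 14 of the largest falls, picked on the same shsuz12 values, were lower than in shPALI1 and shG9a, and 13 were lower than in shJarid2. TFRC was the exception, at 26.5, 23.5 and 19.2 RPKM in shJarid2 and 25.3, 23.8 and 23.0 RPKM in shsuz12 (adjusted p = 0.54). S100P was also low under the other hairpins, at 3.56 to 6.69 RPKM, yet lower still in shsuz12 (adjusted p at most 6.1e-06 in the 3 tests).

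Of the PRC2 genes, EZH2 had a mean of 10.48 RPKM in shJarid2, which did not differ past the threshold from the 10.1 RPKM of shsuz12 (adjusted p = 0.49), and 16.7 and 14.03 RPKM in shPALI1 and shG9a, both higher (adjusted p = 4.5e-07 and 4.7e-05). LCOR was higher in shsuz12 than under every other hairpin (adjusted p at most 0.00053), shPALI1 included, which targets this locus.

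Of all tested genes 34.7% were lower in shsuz12 than in shJarid2, 31.3% than in shPALI1 and 26.2% than in shG9a. The shares higher were 26%, 26% and 20.9%, and the list counts here are to be read against these. The mitotic genes were lower in shsuz12 than in shPALI1 for 24 of 25 members and than in shG9a for 23, and 14 were lower than in shJarid2, with 1 higher. CDC20 had a mean of 16.6 RPKM in shJarid2 and 16.4 RPKM in shsuz12 (adjusted p = 0.99). Most ATF4 program genes were lower than in each other group, with 22 of 28 against shJarid2, 24 against shPALI1 and 19 against shG9a. Genes activated by androgen were higher in shsuz12 than in shPALI1 for 21 of 33 and lower for 4, higher than in shG9a for 15 and lower for 10, and higher than in shJarid2 for 8 and lower for 17. KLK3 had means of 300.1 RPKM in shPALI1 and 594 RPKM in shsuz12 (adjusted p = 8.2e-06), while shJarid2, at 614 RPKM, did not differ past the threshold (adjusted p = 0.80).

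**Figure D5:**
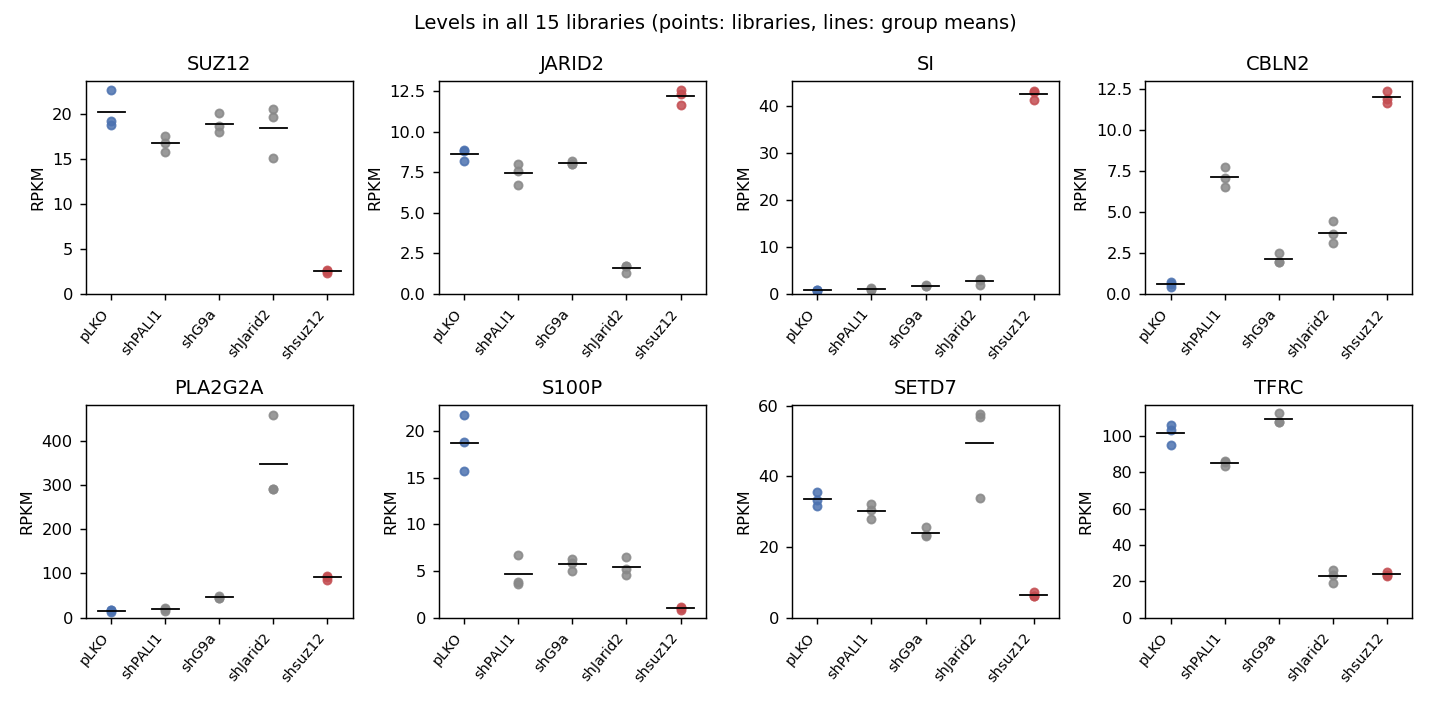
RPKM (linear axes from 0) of 8 genes in all 15 libraries, with points for libraries and lines for group means (n = 3). SI is high in shsuz12 alone, PLA2G2A is highest in shJarid2, SETD7 is lowest in shsuz12, and TFRC is low in both shJarid2 and shsuz12.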

How the data were processed

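RNA sequencing libraries of LNCaP cells were aligned with STAR to hg38, per the submitters' processing notes. For the counting tool and annotation: not given in the sources used here. RPKM values, deposited by the authors in 1 table, cover all 15 libraries, with columns matched to samples by name, and 0 columns matched no sample. Values were tested as log2(RPKM + 1) with limma 3.58.1 in R 4.3.3 (trended empirical Bayes, two-sided, Benjamini-Hochberg) on the 6 libraries, and the direct comparisons used 1 model over 15 libraries on the same 12074 genes. The scale understates changes of low genes. The test was checked on simulated data. Nothing in the labels says that libraries came from separate cultures, so p values measure the spread between libraries, which may be technical. Depth was read from the RPKM steps of short genes, of which 92.8% to 94.7% were whole reads within 0.05 read; since the genes at 1 read set the step, this check is partly circular.

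The text names SUZ12, the 14 largest rises and falls with separate groups and a mean RPKM of at least 2, genes switched on (at most 8), every PRC2 subunit, and up to 4 members of each list by smallest p. Names of clones, loci, antisense RNAs and pseudogenes and the 28 date-like names were left out of the rises and falls. One of the 14 falls and some list members are not reported here. Other genes, such as PLK1, MKI67, ACPP and MDM2, were named after their values were seen. Members and lists were chosen with earlier results of these data known. Promoters came from RefSeq and 3′ UTRs from GENCODE v29, with Python 3.11.15. Alternatives covered the pseudocount, filter, scaling, model, weights, replicate block and each library left out.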

Additional observations from a re-analysis of the deposited data

How the results depend on the processing

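Of the counts over all genes, those of changes of at least 2-fold moved most. Rises numbered 523 with a pseudocount of 0.1 and 636 at a common sum, against 266. Falls numbered 672 with a pseudocount of 0.1, against 408. The common sum lay above the deposited sums, so the pseudocount of 1 weighed less there, and these effects were not separated. With median ratio scaling and quantile normalization such rises numbered 326 and 333. With each library left out in turn, genes higher numbered 2301 to 2729, genes lower 3712 to 4282, rises of at least 2-fold 264 to 296 and falls of at least 2-fold 387 to 475. No called gene among those named by the rules above changed sign under the alternatives run. The balance of calls did turn: at a common sum 3671 genes were higher and 3214 lower, against 2717 and 4273. Likewise ribosomal protein genes went from 3 higher and 9 lower to 26 and 7, developmental factors from 8 and 9 to 10 and 6, and unfolded protein response genes from 4 and 6 to 7 and 6, and with quantile normalization EZH2-silenced genes went from 4 and 5 to 5 and 4. Among the genes named by those rules 51 calls were lost and 3 gained over all alternatives, against 2949 that stayed. Of the list counts 115 moved by over 1.5 times, against 1261 that did not. The cause of these moves was not tested. The replicate numbers are shared between the groups, but same-numbered libraries did not deviate together (r = -0.21, 0 and -0.09). With the number as a replicate block 2433 genes were higher and 3916 lower. RPKM alone gives no exact counts, so low genes are the least precise, and the short microRNA genes rest on 1 to 3 reads.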
